A study of Mus musculus with 5 samples.

Results

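The glutathione peroxidases and selenoproteins described here are 10 genes, Gpx1, Gpx3, Gpx4, Gpx7, Gpx8, Txnrd1, Txnrd2, Selenop, Selenow and Selenom, chosen by symbol from the 49315 genes of the count tables. All 10 were found, and all 10 passed the filter on low counts. Poly-A RNA sequencing of mouse hearts, labelled as whole and of mixed cell type, gave their levels in 3 libraries from mice fed a high-fat, high-sucrose diet (HFHS) and 2 libraries from mice fed standard chow, each diet given for 18 weeks. Mice of both groups had received intravenous iron dextran, an iron-carbohydrate complex, as a single dose 48 hours before the heart was perfused with saline and frozen. The dose of iron is not given in the sources used here. No library without iron is part of the comparison, which asks how these genes differ between the diets after iron. The labels name no strain, sex or age and do not say that the libraries came from separate mice, so p-values measure the spread between these libraries only.

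Glutathione peroxidases reduce hydrogen peroxide or lipid hydroperoxides to water or alcohols with electrons from glutathione, and thioredoxin reductases return oxidised thioredoxin to its reduced form with electrons from NADPH. Most of these enzymes carry selenocysteine, a cysteine analogue with selenium in place of sulfur, at the catalytic site. Selenocysteine is inserted at a UGA codon that would otherwise end translation, which requires a stem-loop in the 3' untranslated region of the messenger RNA, a dedicated transfer RNA and its own elongation factor. GPX4 is the enzyme that reduces phospholipid hydroperoxides within membranes, and its loss leads to ferroptosis, an iron-dependent form of cell death.

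The codons at the catalytic position separate the selenoproteins from their cysteine-containing relatives among the 10 genes, and they are shown for that reason. Each stretch is coding sequence of a GENCODE M21 transcript (GRCm38), written 5' to 3' with the codon in capitals. TGA is the selenocysteine codon and TGT or TGC is a cysteine codon.
Gpx1: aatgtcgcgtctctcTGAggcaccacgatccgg
Gpx3: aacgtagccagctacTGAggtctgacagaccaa
Gpx4: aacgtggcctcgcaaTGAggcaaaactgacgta
Gpx7: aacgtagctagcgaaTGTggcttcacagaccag
Gpx8: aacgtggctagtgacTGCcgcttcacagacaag
Txnrd1: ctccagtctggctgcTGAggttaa
Txnrd2: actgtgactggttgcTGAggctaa
Selenop: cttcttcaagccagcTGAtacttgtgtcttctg
Selenow: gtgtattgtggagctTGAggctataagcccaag
Selenom: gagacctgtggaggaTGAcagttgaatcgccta
For Gpx7 and Gpx8 the codon shown is the one aligned with the selenocysteine codon of Gpx4, and neither reading frame holds an in-frame TGA. In Txnrd1 and Txnrd2 the TGA is followed by 1 further codon and then the stop codon shown at the end of the stretch. The Selenop reading frame has 10 annotated selenocysteine codons, of which the first is shown, and each of the other 7 selenoprotein genes of this set has 1.

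Of the 10 genes, 8 fell in HFHS hearts, 1 rose and 1 did not pass the test. Those that fell were all 5 peroxidase genes (Gpx1, Gpx3, Gpx4, Gpx7 and Gpx8) and the genes of the small or secreted selenoproteins Selenop, Selenow and Selenom. Among the thioredoxin reductase genes, the cytosolic Txnrd1 was slightly higher and the mitochondrial Txnrd2 did not pass. These calls are from edgeR's quasi-likelihood test over 14221 genes at a Benjamini-Hochberg adjusted p of 0.05, which called 38.1% of all tested genes, 18.7% lower and 19.4% higher. The same 8 genes were lower in every HFHS library than in every chow library, which holds for 29.4% of all tested genes, and Txnrd1 was higher in every HFHS library, which holds for 29.2%. The median log2 fold change, HFHS over chow, was -0.80 over the 10 genes and -0.01 over all tested genes. In whole tissue, fewer cells of a type cannot be told apart from less RNA per cell.

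Fold changes in these libraries also followed exon length. In the 10 equal bins of tested genes by exon length the median log2 fold change was -0.47 in the bin with the shortest genes and 0.32 in the bin with the longest. Selenow, Gpx8 and Gpx7 lie in the shortest bin, where 43.6% of genes were called lower, and Gpx1, Selenom, Gpx4 and Gpx3 in the next, where 37.8% were called lower and the median was -0.32. A second fit therefore carried offsets for each library's smooth trend on exon length and transcript GC, and is called the length-adjusted fit. It called 30.6% of 14193 genes, 14.9% lower and 15.7% higher, and of the 10 genes 7 fell, 1 rose and 2 did not pass, with a median log2 fold change of -0.51. The part of RNA quality or library preparation in the length trend was not tested.

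**Figure D1:**
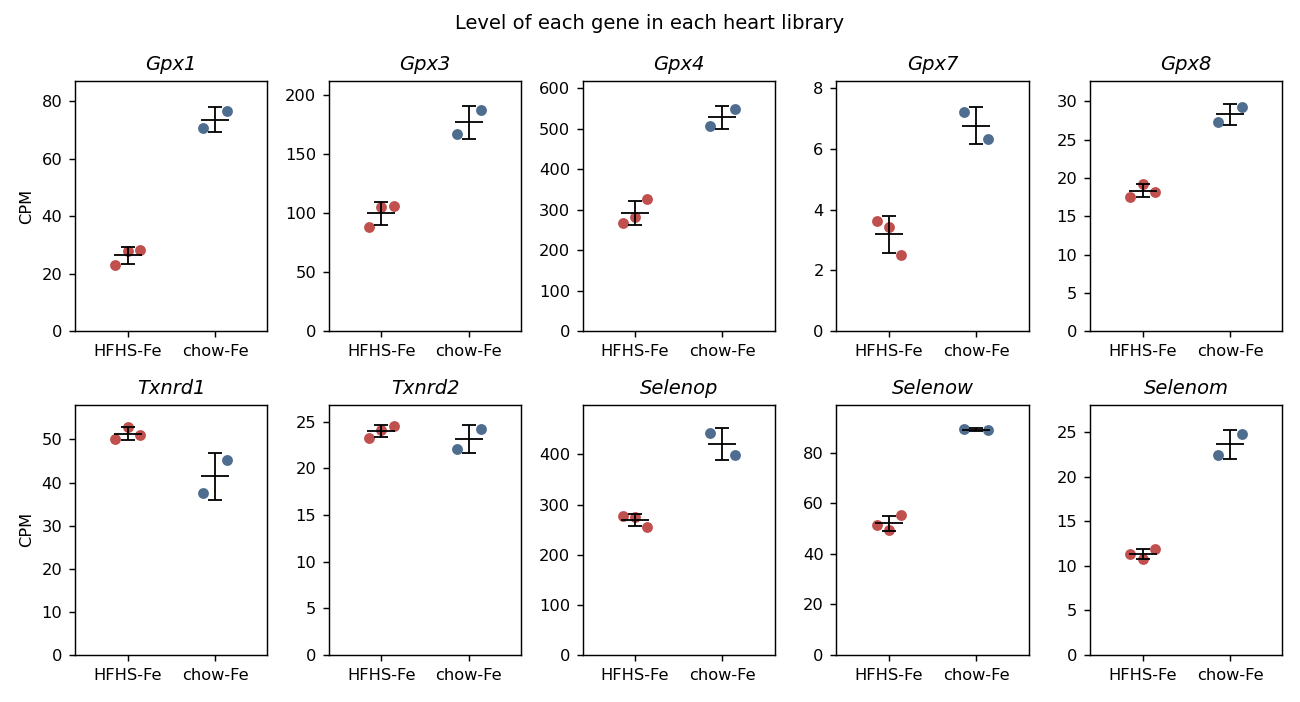
Level of each of the 10 genes in CPM (counts scaled to the TMM-adjusted library size), 1 panel per gene with the axis from 0. Points are libraries, 3 from HFHS-Fe hearts at the left and 2 from chow-Fe hearts at the right, and the horizontal mark and bar are the mean and SD. The points of the HFHS-Fe and chow-Fe hearts are apart in 9 panels, with Txnrd1 higher in HFHS hearts and the other 8 lower, and they overlap for Txnrd2.

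Gpx1 (ENSMUSG00000063856, chromosome 9 from 108338903 to 108340343, GRCm38, plus strand; gene coordinates are those of the count tables) encodes the abundant cytosolic and mitochondrial peroxidase that reduces hydrogen peroxide. It had 23.0, 27.9 and 28.4 CPM in the 3 HFHS hearts, against 70.5 and 76.5 CPM in the 2 chow hearts. Every HFHS library was below both chow libraries by a wide margin, and the gap had the largest fold among the 10 genes. Gpx1 was 2.79-fold lower, and its log2 fold change of -1.48 (SE 0.0972) had a 95% interval of -1.69 to -1.27, with an edgeR adjusted p of 1.12e-07. In the length-adjusted fit its log2 fold change was -1.12, with an adjusted p of 1.32e-06. The selenocysteine codon of Gpx1 shown above is codon 47 of 201 (chr9:108339451-108339453).

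Gpx4 (ENSMUSG00000075706, chromosome 10 from 80047166 to 80056439, plus strand) encodes the phospholipid hydroperoxide peroxidase, with selenocysteine at codon 73 of 197 (chr10:80054737-80054739). The HFHS hearts had 268, 282 and 325 CPM, against 507 and 549 CPM in chow hearts, without overlap of the groups. Its log2 fold change of -0.86 had a 95% interval of -1.03 to -0.68 and an edgeR adjusted p of 3.42e-06, and in the length-adjusted fit the value was -0.56, with an adjusted p of 4.80e-05. Gpx4-ps2, a transcribed processed pseudogene of Gpx4 on the same chromosome, had 102, 81 and 118 counts in HFHS hearts, against 223 and 316 counts in chow hearts. These are few beside the 3923 to 4816 counts of Gpx4 itself in HFHS hearts and its 9370 and 9881 counts in chow hearts. How reads that match both were assigned is not given in the sources used here. The pseudogene was lower too, with a log2 fold change of -1.14 and an adjusted p of 0.000197.

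Gpx3 (ENSMUSG00000018339, chromosome 11 from 54902453 to 54910377, plus strand) encodes the secreted peroxidase of plasma, made mostly by kidney and also by heart and fat. It had 88.7, 105.1 and 106.0 CPM in HFHS hearts, against 167 and 187 CPM in chow hearts. The groups were again apart. Gpx3 was 1.77-fold lower (log2 fold change -0.83, SE 0.0882), with an edgeR adjusted p of 7.28e-06, and in the length-adjusted fit the log2 fold change was -0.54 with an adjusted p of 0.000244. Adipocytes also make Gpx3, and the 7 fat cell markers together came to 0.302 to 0.663 CPM in HFHS hearts, against 0 to 0.115 CPM in chow hearts. These sums rest on few reads. No fat cell marker had more than 4 counts in a library, and none had enough to be tested. Its selenocysteine codon is codon 73 of 226 (chr11:54907256-54907258).

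Gpx7 and Gpx8 encode peroxidases of the endoplasmic reticulum, with cysteine in place of selenocysteine, which take part in oxidative protein folding. Gpx7 (ENSMUSG00000028597, chromosome 4 from 108400390 to 108406961, minus strand) was scarce, with 58, 48 and 37 counts in HFHS hearts and 133 and 114 counts in chow hearts. That is a mean of 3.19 ± 0.603 CPM in HFHS hearts (SD, n = 3), against 6.77 ± 0.614 CPM in chow hearts (SD, n = 2), and the groups did not overlap. Its log2 fold change of -1.08 had the widest 95% interval of the 10 genes, -1.53 to -0.63, and an edgeR adjusted p of 0.000991. In the length-adjusted fit Gpx7 had a log2 fold change of -0.69 and an adjusted p of 0.0261. With a library left out of that fit, the call was lost without HFHS replicate 2 (0.0543), HFHS replicate 3 (0.0963) or chow replicate 1 (0.123). The aligned cysteine codons are codon 56 of 186 in Gpx7 (chr4:108403430-108403432) and codon 79 of 209 in Gpx8 (chr13:113045661-113045663), both on the minus strand.

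Gpx8 (ENSMUSG00000021760, chromosome 13 from 113042763 to 113046388, minus strand) had 17.5, 19.2 and 18.2 CPM in HFHS hearts, against 27.3 and 29.2 CPM in chow hearts. Both groups were tight and did not overlap, and the log2 fold change was -0.63 with an edgeR adjusted p of 0.000194. This call depended on the length adjustment. In the length-adjusted fit it had a log2 fold change of -0.15 with a 95% interval of -0.37 to 0.07 and an adjusted p of 0.286, and with offsets for exon length alone it was -0.19 with an adjusted p of 0.165. The exon length of Gpx8 is 1016 bases, which puts it in the shortest of the length bins, and its fold change was 0.16 on the log2 scale below that bin's median.

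**Figure D2:**
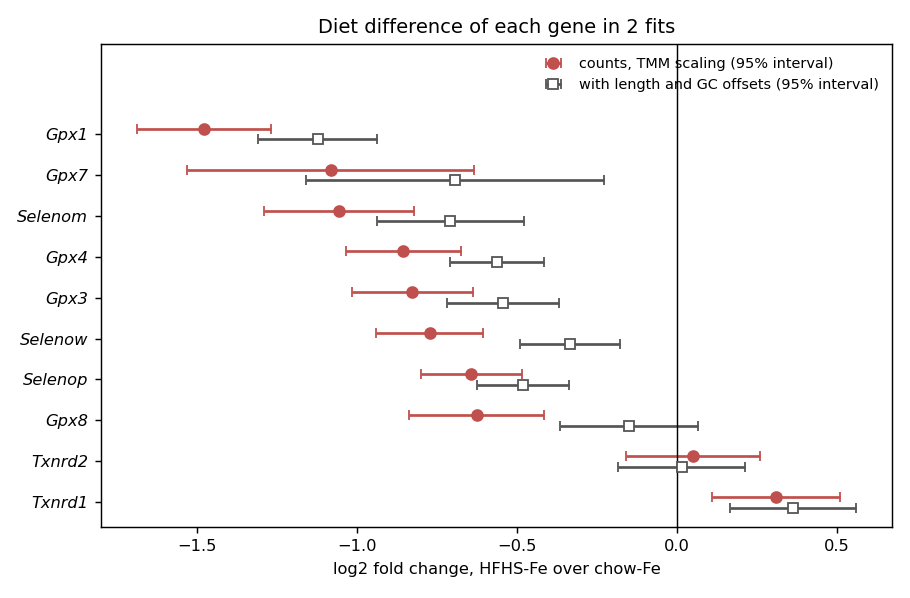
Log2 fold change, HFHS-Fe over chow-Fe, of each of the 10 genes with its 95% interval, from the counts with TMM scaling (filled circles) and with length and GC offsets (open squares). The length-adjusted values lie nearer to 0 for the 8 genes that fell. Only the interval of Gpx8 among them then crosses 0, while Txnrd1 stays above 0 in both fits.

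The thioredoxin reductases did not follow the peroxidases in the main fit. Their exons are longer, and Txnrd1 and Txnrd2 lie in bins whose median log2 fold change was -0.04 and 0.03. Txnrd1 (ENSMUSG00000020250, chromosome 10 from 82859206 to 82897724, plus strand), the cytosolic enzyme, had 50.1, 52.9 and 51.1 CPM in HFHS hearts, against 37.6 and 45.3 CPM in chow hearts. The HFHS libraries were close together and above both chow libraries, which differed from each other by more than the HFHS libraries did. Txnrd1 rose 1.24-fold. The log2 fold change was 0.31 (SE 0.0927, 95% interval 0.11 to 0.51; edgeR adjusted p 0.0174), and 0.36 with an adjusted p of 0.00852 in the length-adjusted fit. The call rests on chow replicate 1, without which the log2 fold change was 0.18 with an adjusted p of 0.194, and on HFHS replicate 2, without which it was 0.29 with an adjusted p of 0.0718. Selenocysteine is encoded near the end of the reading frame, at codon 498 of 499 (chr10:82896037-82896039).

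Txnrd2 (ENSMUSG00000075704, chromosome 16 from 18426384 to 18479073, plus strand), the mitochondrial reductase on which heart muscle depends in mice, had 23.2, 24.1 and 24.5 CPM in HFHS hearts, against 22.1 and 24.2 CPM in chow hearts. The groups overlapped. Its log2 fold change was 0.05, with a 95% interval of -0.16 to 0.26 and an edgeR adjusted p of 0.728, and in the length-adjusted fit it was 0.01 with an adjusted p of 0.930. In the main fit its interval does not reach any of the fold changes of the 8 genes that fell. In the length-adjusted fit its interval of -0.18 to 0.21 holds the Gpx8 value of -0.15. Its selenocysteine is at codon 526 of 527 (chr16:18477772-18477774). Before scaling, Txnrd2 had 336 to 372 counts in HFHS hearts, against 408 and 436 counts in chow hearts, whose libraries were larger.

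Txnrd1 is a classical target of NRF2, the transcription factor that binds antioxidant response elements, and the 250 bases upstream of the RefSeq start sites were searched for the core of that element (TGACNNNGC, both strands). Among the 10 genes a match was found only for Txnrd1, in 1 of its 3 annotated windows, while 11.5% of 27025 genes have a match in a window of this kind. The match lies on the minus strand in the stretch of RefSeq sequence below, given on the gene's strand from build GRCm38.p6 (chr10:82859094-82859142), with the element in capitals.
Txnrd1 upstream: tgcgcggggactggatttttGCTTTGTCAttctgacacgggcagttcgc
A match describes these letters only and says nothing about binding in these hearts.

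Selenop (ENSMUSG00000064373, chromosome 15 from 3268547 to 3280508, plus strand) encodes the plasma protein that carries selenium between tissues, most of it made by liver. It was at 277, 276 and 256 CPM in HFHS hearts, against 443 and 399 CPM in chow hearts. The groups did not overlap, and Selenop was 1.56-fold lower with an edgeR adjusted p of 1.35e-05. With an exon length of 2845 bases it is in a bin whose median log2 fold change was -0.12, against -0.64 for Selenop itself, and the length-adjusted value was -0.48 with an adjusted p of 0.000131. The first of its selenocysteine codons is codon 59 of 380 (chr15:3274848-3274850).

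Selenow (ENSMUSG00000041571, chromosome 7 from 15917208 to 15922402, minus strand) encodes a small thioredoxin-fold protein that is abundant in muscle. The HFHS hearts had 51.5, 49.6 and 55.5 CPM, against 89.5 and 88.9 CPM in chow hearts. The groups did not overlap, and with 736 exon bases this is the shortest of the 10 genes. The log2 fold change was -0.77 (SE 0.0780, edgeR adjusted p 4.54e-06) in the main fit and -0.33 (adjusted p 0.00340) in the length-adjusted fit, where it still passed. Its selenocysteine is at codon 13 of 88 (chr7:15920464-15920466, minus strand).

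Selenom (ENSMUSG00000075702, chromosome 11 from 3514684 to 3517351, plus strand) encodes a small thioredoxin-fold protein of the endoplasmic reticulum. Libraries from HFHS hearts had 11.4, 10.8 and 11.9 CPM, against 22.5 and 24.8 CPM in chow hearts, with no overlap of the groups. Selenom was 2.08-fold lower (log2 fold change -1.06, SE 0.109; edgeR adjusted p 5.67e-06). In the length-adjusted fit it remained 1.63-fold lower with an adjusted p of 0.000247. Its selenocysteine is at codon 48 of 145 (chr11:3516273-3516275).

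**Figure D3:**
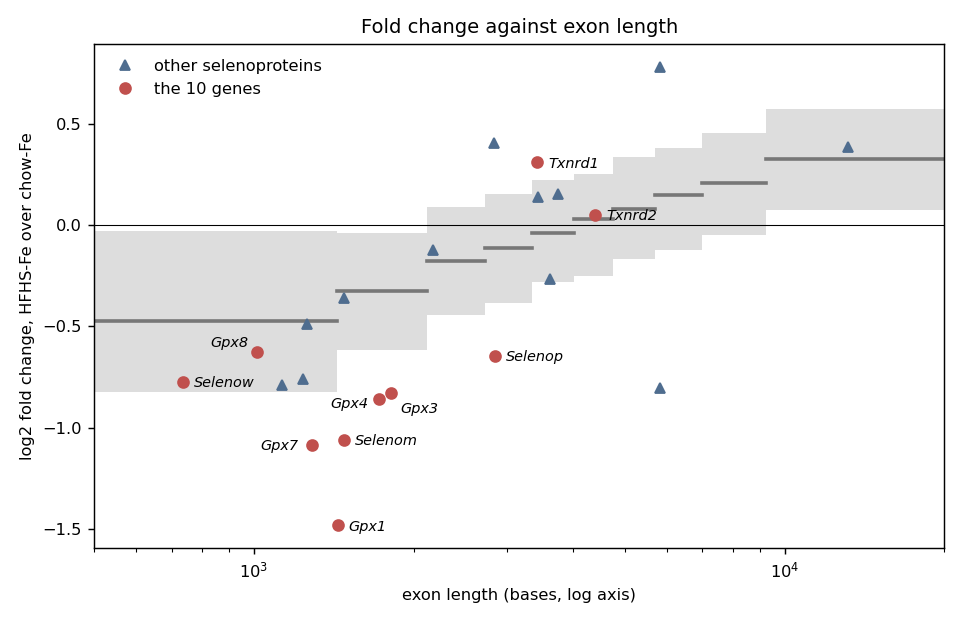
Log2 fold change, HFHS-Fe over chow-Fe, against exon length in bases on a log axis. Grey lines are medians and grey boxes the middle 50% of all tested genes in 10 equal bins of exon length, circles are the 10 genes and triangles the other tested selenoprotein genes. Gpx1, Gpx3, Gpx4, Gpx7, Selenom and Selenop lie below the box of their bin, Selenow, Gpx8 and Txnrd2 lie inside it, and Txnrd1 lies above it.

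Compared per kilobase of exon (RPKM, the CPM divided by exon length in kilobases), the genes kept nearly the same order of level in both diets. Gpx4 had the highest level, 169 ± 17.3 RPKM in HFHS hearts (SD, n = 3) and 306 ± 17.1 RPKM in chow hearts (SD, n = 2), followed in both diets by Selenop, Selenow and Gpx3. Gpx1 and Gpx8 came next. In HFHS hearts these overlapped, at 18.3 ± 2.06 and 18.0 ± 0.839 RPKM, whereas in chow hearts Gpx1 was above Gpx8 in both libraries, at 51.0 ± 2.97 and 27.8 ± 1.31 RPKM. Txnrd1 was above Selenom in HFHS hearts, at 15.03 ± 0.417 and 7.66 ± 0.381 RPKM, and below it in chow hearts, at 12.1 ± 1.59 and 15.9 ± 1.10 RPKM. Txnrd2 and Gpx7 had the lowest levels, and they overlapped in chow hearts, at 5.26 ± 0.342 and 5.25 ± 0.476 RPKM, but not in HFHS hearts, at 5.44 ± 0.151 and 2.47 ± 0.468 RPKM. All other neighbours in the order had libraries that did not overlap. The union of exons used for the length can exceed the length of the main transcript, so these levels are approximate.

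The summed level of the 10 genes was 814, 851 and 879 CPM in HFHS hearts, against 1394 and 1430 CPM in chow hearts. Gpx4 made up 33.0% to 37.0% of that sum in HFHS hearts and 36.4% and 38.4% in chow hearts. Together with Selenop it accounted for most of the sum in every library, since Selenop added 29.1% to 34.0% in HFHS hearts and 27.9% and 31.8% in chow hearts.

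Of the 16 other selenoprotein genes, 12 could be tested, and Gpx2, Dio1, Dio3 and Selenov had too few counts. Of the 12, 5 fell, 2 rose and 5 did not pass, where 18.7% of all tested genes fell and 19.4% rose. Their median log2 fold change was -0.20. In the length-adjusted fit 2 fell and 2 rose with a median of 0.03. Both counts are near the shares of 14.9% lower and 15.7% higher that this fit called among all tested genes. Selenof, a quality-control protein of the endoplasmic reticulum, had 71.1, 67.3 and 72.0 CPM in HFHS hearts, against 129.9 and 115.2 CPM in chow hearts, and was 1.75-fold lower with an edgeR adjusted p of 3.40e-06. Its exon length of 5819 bases is in a bin whose median was above 0, and the length-adjusted log2 fold change of -0.88 was no smaller than the main value of -0.81. Selenok, an endoplasmic reticulum membrane protein, was 1.69-fold lower with an edgeR adjusted p of 7.13e-06 and kept its call after the length adjustment, with a log2 fold change of -0.34 and an adjusted p of 0.00658.

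Selenoh, a nuclear thioredoxin-fold protein, and Msrb1, which reduces oxidised methionine, fell in the main fit, 1.73-fold with an edgeR adjusted p of 0.000775 and 1.40-fold with 0.00106. Both lost the call in the length-adjusted fit, where their adjusted p-values were 0.0634 and 0.427. Selenos fell 1.28-fold with an edgeR adjusted p of 0.0150, and after the length adjustment its log2 fold change was 0.002. It also lost the call without HFHS replicate 2 (adjusted p = 0.0760) or chow replicate 2 (0.0898). The thioredoxin-glutathione reductase gene Txnrd3 rose 1.32-fold with an edgeR adjusted p of 0.00810, and 1.44-fold after the length adjustment. Selenoi, a phospholipid-synthesis enzyme with 13135 exon bases, rose 1.31-fold with an edgeR adjusted p of 0.0110. Its call was lost after the length adjustment (0.691), without HFHS replicate 1 (0.05003) and without chow replicate 1 (0.0785).

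Selenot and Selenon, both of the endoplasmic reticulum, did not pass in the main fit. Selenot was at 166 ± 4.09 CPM in HFHS hearts, against 151 ± 2.80 CPM in chow hearts (SD, n = 3 and n = 2), with an edgeR adjusted p of 0.137 that became 0.0182 in the length-adjusted fit. Selenon was at 18.5 ± 1.62 CPM in HFHS hearts, against 22.2 ± 2.46 CPM in chow hearts, with an edgeR adjusted p of 0.0808, but it passed when HFHS replicate 3 (0.0447) or chow replicate 1 (0.0437) was left out. Sephs2, itself a selenoprotein that makes the selenium donor for selenocysteine, was at 19.3 ± 2.15 CPM in HFHS hearts, against 21.04 ± 1.79 CPM in chow hearts, with an edgeR adjusted p of 0.429. Over the 24 selenoprotein genes of the mouse, 8 of which are among the 10 genes, 20 were tested. Of these 11 fell and 3 rose, where 18.7% of all tested genes fell and 19.4% rose. In the length-adjusted fit 8 fell and 3 rose, where 14.9% of all tested genes fell and 15.7% rose.

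A group of 5 selenoprotein genes (Gpx1, Gpx3, Selenow, Selenoh and Msrb1) is known in rodents for messenger RNA that declines readily when selenium is scarce. All 5 fell in HFHS hearts, where 18.7% of all tested genes fell, with a median log2 fold change of -0.79. All 5 lie in the shortest bin of exon length or the next, where 43.6% and 37.8% of genes were called lower. In the length-adjusted fit, which called 14.9% of all tested genes lower, the median was -0.37. There 3 of them, which are among the 10 genes, still passed, and Selenoh and Msrb1 did not. The fall was not particular to this group. In the main fit Gpx4 (log2 fold change -0.86), Selenom (-1.06) and Selenof (-0.81), selenoprotein genes outside it, fell as well. Txnrd1, Txnrd3 and Selenoi rose. The selenium content of the diets and of the hearts was not analysed here.

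**Figure D4:**
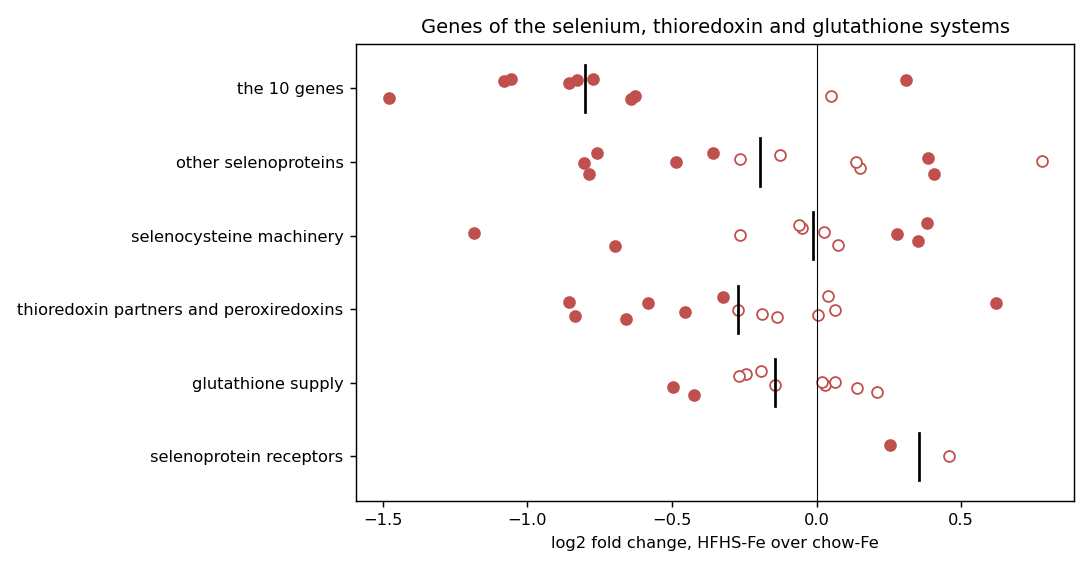
Log2 fold change, HFHS-Fe over chow-Fe, of the tested genes in each list, 1 point per gene, with filled points for genes past an adjusted p of 0.05 and open points for the rest. Vertical black lines are list medians, -0.80 for the 10 genes and between -0.27 and 0.36 for the other 5 lists.

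Of 10 tested genes that build selenocysteine into proteins, 3 rose, 2 fell and 5 did not pass, near the shares of 19.4% higher and 18.7% lower among all tested genes. Their median log2 fold change was -0.01. In the length-adjusted fit none rose and 3 fell, where 15.7% of all tested genes rose and 14.9% fell. Secisbp2, which binds the stem-loop of selenoprotein messages, had 23.5, 23.6 and 24.1 CPM in HFHS hearts, against 20.1 and 18.9 CPM in chow hearts, and rose 1.21-fold with an edgeR adjusted p of 0.0363. Leaving out any 1 library ended that call, with adjusted p-values of 0.0639 to 0.170. Its relative Secisbp2l rose 1.27-fold (edgeR adjusted p 0.00772; 0.0605 without chow replicate 2) and Sepsecs, which makes selenocysteine on its transfer RNA, rose 1.30-fold (0.0236). The call of Sepsecs was lost without HFHS replicate 1 (0.0650), HFHS replicate 2 (0.0842) or chow replicate 2 (0.136).

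Trnau1ap, a protein associated with the selenocysteine transfer RNA, was 1.62-fold lower with an edgeR adjusted p of 0.000223. Rpl30, a ribosomal protein that also binds the selenocysteine stem-loop, was 2.27-fold lower, at 89.0 ± 4.31 CPM in HFHS hearts (SD, n = 3), against 202 ± 5.74 CPM in chow hearts (SD, n = 2), with an edgeR adjusted p of 7.31e-08. Both still passed in the length-adjusted fit. Ribosomal protein genes have many processed pseudogenes, so the count of Rpl30 is uncertain. The elongation factor gene Eefsec was at 3.90 ± 0.841 CPM in HFHS hearts, against 3.71 ± 0.494 CPM in chow hearts, with an edgeR adjusted p of 0.835.

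Among 13 thioredoxin partners, peroxiredoxins and methionine sulfoxide reductases, 6 fell, 1 rose and 6 did not pass, beside the same background of 18.7% lower and 19.4% higher, with a median log2 fold change of -0.27. With the length adjustment 6 fell and 2 rose, where 14.9% of all tested genes fell and 15.7% rose. Txn1, the cytosolic substrate of Txnrd1, was 1.81-fold lower, at 31.6 ± 4.70 CPM in HFHS hearts (SD, n = 3), against 57.1 ± 3.83 CPM in chow hearts (SD, n = 2), with an edgeR adjusted p of 3.26e-05. Its log2 fold change of -0.86 in the main fit became -0.41 in the length-adjusted fit, with an adjusted p of 0.0118. Txn2, the mitochondrial substrate of Txnrd2, was at 128 ± 4.45 CPM in HFHS hearts, against 145 ± 5.67 CPM in chow hearts, with an edgeR adjusted p of 0.0543, and it passed in the length-adjusted fit with 0.0351 and without HFHS replicate 3 with 0.0440. The peroxiredoxin genes Prdx5 and Prdx1, whose products reduce peroxides with electrons from thioredoxin, had log2 fold changes of -0.58 and -0.66, with edgeR adjusted p-values of 2.58e-05 and 2.63e-05, and -0.36 and -0.52 in the length-adjusted fit, where both still passed. Prdx5 shares 19.1% of its exon bases with Trmt112 on the opposite strand. Without a stated strand setting, reads in such a stretch cannot be assigned to either gene. Msrb3, a methionine sulfoxide reductase without selenium, rose 1.54-fold, with 154, 152 and 152 CPM in HFHS hearts, against 99.6 and 99.0 CPM in chow hearts, and an edgeR adjusted p of 1.27e-05. Its log2 fold change was 0.62, and 0.64 in the length-adjusted fit.

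Of 11 tested genes listed for the supply, use or breakdown of glutathione, the electron donor of the peroxidases, 2 fell, none rose and 9 did not pass. Among all tested genes 18.7% fell and 19.4% rose, so the share that fell was near that of all genes. Ggt5 and Glrx2 fell and Chac2 rose in the length-adjusted fit, which called 14.9% of all tested genes lower and 15.7% higher. Glrx2 and Chac2 are named here after their values were seen. The cystine transporter gene Slc7a11 had too few counts. Ggt5, which breaks down extracellular glutathione, was 1.34-fold lower with an edgeR adjusted p of 0.0251, a call lost without HFHS replicate 2 (0.0778), HFHS replicate 3 (0.0615) or chow replicate 2 (0.150). G6pdx, which makes NADPH, was 1.41-fold lower with 0.0406, and lost its call in the length-adjusted fit (0.0956) and without HFHS replicate 2 (0.153), HFHS replicate 3 (0.118), chow replicate 1 (0.0855) or chow replicate 2 (0.108). G6pdx shares 13.6% of its exon bases with Ikbkg on the opposite strand. Of the receptors that take up selenoprotein P, Lrp1 rose 1.19-fold with an edgeR adjusted p of 0.0280, which was lost without HFHS replicate 1 (0.0564), HFHS replicate 2 (0.133) or chow replicate 1 (0.223). After the length adjustment its log2 fold change was -0.20 with an adjusted p of 0.0736. Lrp8 had 3 to 10 counts in HFHS hearts and 4 and 9 counts in chow hearts, and Lrp2 had too few to test.

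Markers of several cell types were lower in the same HFHS hearts. Among all tested genes the main fit called 18.7% lower and 19.4% higher. Summed over 10 macrophage markers the level was 194 to 226 CPM in HFHS hearts, against 483 and 563 CPM in chow hearts, and all 10 fell. The 8 fibroblast markers, all of which fell, summed to 844 to 909 CPM in HFHS hearts, against 1344 and 1470 CPM in chow hearts. Of 8 endothelial markers 6 fell, and the sum of the 8 was 1234 to 1260 CPM in HFHS hearts, against 2041 and 2247 CPM in chow hearts. Much of that gap lay in Fabp4, with a TMM-scaled mean of 424 CPM in HFHS hearts, against 1015 CPM in chow hearts. Cdh5 (means of 189 and 196 CPM) and Kdr (265 and 277 CPM) did not pass. All 8 red blood cell markers fell, with sums of 252 to 527 CPM in HFHS hearts, against 1493 and 1711 CPM in chow hearts. The 9 cardiomyocyte markers summed to 61840 to 64544 CPM in HFHS hearts, against 62498 and 67828 CPM in chow hearts, with 2 higher, 4 lower, 2 that did not pass and the atrial light chain gene Myl7 at 0 to 7 counts. Of 7 pericyte and smooth muscle markers 3 fell and 1 rose, and their sum was 1243 to 1307 CPM in HFHS hearts, against 1423 and 1429 CPM in chow hearts. Of 5 tested markers of other blood cells 3 fell, and the 7 listed summed to 7.59 to 10.1 CPM in HFHS hearts, against 22.4 and 22.7 CPM in chow hearts. The 5 mesothelial markers summed to 8.98 to 11.8 CPM in HFHS hearts, against 7.09 and 9.35 CPM in chow hearts, and 2 of the 3 tested rose. The length-adjusted fit called 14.9% of all tested genes lower and 15.7% higher. In it 9 macrophage, 6 fibroblast, 7 endothelial and 8 red blood cell markers fell, and none of these lists had a marker that rose. In that fit 4 cardiomyocyte markers rose and 3 fell, 2 pericyte and smooth muscle markers fell and 1 rose, 1 marker of other blood cells fell, and 2 mesothelial markers rose. The part of these markers' cell types in the lower levels of the 8 genes was not tested.

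The libraries held 14362766 to 16546113 counts in HFHS hearts and 17331356 and 17774735 counts in chow hearts, and 3 counts, the limit that 0 counts allow for counting error alone, equal 0.181 to 0.209 CPM in HFHS hearts, against 0.169 and 0.173 CPM in chow hearts. Gpx7, with 37 to 133 counts, was the most thinly covered of the 10 genes, and each of the other 9 had at least 150 counts in every library.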

How the data were processed

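The authors deposited raw counts for each gene in a separate table per library; per the file headers, each table also gives exon coordinates and the exon length (another unit, in bases). The submitters' processing notes name GRCm38, Trimmomatic 0.36, STAR 2.5.2b and Subread 1.5.2 with featureCounts. Which strand was counted, what was done with multi-mapping reads and which annotation was used is not given in the sources used here. Symbols came from GENCODE M21, which holds 49056 of the 49315 genes.

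The test was edgeR 4.0.16 in R 4.3.3 on all 5 libraries (filterByExpr, TMM, glmQLFit and glmQLFTest on diet, Benjamini-Hochberg adjustment over all tested genes). Standard errors are approximate, derived from the fold change and the F statistic. CPM of single genes is scaled by TMM; marker sums are per total counts. The length-adjusted fit uses smooth trends per library (mgcv 1.9.3) on the deposited exon length and transcript GC, fitted on genes with a mean of at least 10 counts. The fits were tested on simulated data. Alternatives included RLE and upper-quartile size factors, DESeq2 1.42.0, voom of limma 3.58.1, no filter or at least 1 CPM in 2 libraries, no mitochondrially encoded genes, each library left out, length offsets, a replicate block and an adjusted p of 0.01. The 10 genes, the lists and the tests were chosen with earlier results of these data known. Named from each list are up to 4 called genes with the smallest p and genes chosen for their role; Txnrd3, Selenoi, Selenos and Gpx4-ps2 were added after their values were seen. Of the overlaps between genes, 1 is not reported here.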

Additional observations from a re-analysis of the deposited data

How the results depend on the processing

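Among the 10 genes, 8 were called lower under 14 of 17 alternatives, 7 with length offsets, with or without GC, and 6 with length and GC offsets and the replicate block, where Gpx7 had an adjusted p of 0.109. The higher call, of Txnrd1, was lost at an adjusted p of 0.01, leaving 0 higher, and leaving out each library gave 0 to 1 higher and 8 lower. With the length and GC offsets and 1 library left out, chosen after seeing the data, 6 to 7 genes were lower and 0 to 1 higher. Of all genes 3165 to 3881 then passed: 3487 without HFHS replicate 1, 3165 without HFHS replicate 2 and 3470 without chow replicate 1. Gpx8 lost its call in all 5 of these fits, Gpx7 in 3 and Txnrd1 in 1. Gpx1, Gpx3, Gpx4, Selenop, Selenow and Selenom kept direction and call in the 21 alternative fits run for each. Over all genes 3622 to 5565 passed under the 17 alternatives, against 5417 in the edgeR fit. The labels do not say that a replicate number marks a shared batch. Deviations of same-numbered libraries from their group means correlated by 0.0348 and 0.0258. With 2 chow libraries the chow deviations mirror each other, so these correlations cannot decide whether the numbers pair the samples. With the number as a block 5332 genes passed, and 3691 with the block and the offsets. The block alone changed no call among the 10 genes. The causes of these changes were not tested. Counts limit precision most for Gpx7.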
